A study of Mus musculus with 12 samples.

Results

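Interferon-stimulated genes were followed as a set of 38 genes in whole lungs of newborn mice given bacterial lipopolysaccharide (LPS). The members were taken by gene symbol, and all 38 genes were found among the 52550 genes of the count table. Bulk RNA sequencing was done on 12 lungs, each from 1 mouse, with 3 lungs in each of 4 groups. All mice were on the C57Bl/6J background and were 5 days old at collection. WT mice (Adm+/+) and Adm+/- mice, which carry 1 functional copy of the adrenomedullin gene in every cell, received intraperitoneal injections of Escherichia coli O55:B5 LPS at 6 mg/kg, or PBS, in 3 daily doses from postnatal day 3, and the lung was taken 6 h after the last dose. Libraries are named by their library number, which is WT PBS 3, 4 and 5, WT LPS 9, 10 and 11, Adm+/- PBS 6, 7 and 8, and Adm+/- LPS 1, 2 and 12. Levels are given as CPM, counts scaled to the TMM-normalized library size, always in that order of libraries. Each library is 1 lung, so the spread within a group joins differences between mice with those of tissue sampling and library preparation. These cannot be told apart.

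Interferons are secreted proteins that warn cells of infection. Type I and type III interferons signal through their receptors and JAK kinases to a complex whose DNA-binding part is Irf9, and this complex binds the interferon-stimulated response element (ISRE). Interferon gamma, the type II interferon of NK and T cells, acts mainly through the gamma-activated site (GAS). LPS is sensed by Tlr4, whose signalling through the adaptor TRIF can induce interferon beta, so that a bacterial product raises genes better known from viral infection. The 38 genes fall into 8 roles. The 4 IFIT genes (Ifit1, Ifit2, Ifit3, Ifit3b) encode RNA-binding blockers of viral translation. Isg15 is a ubiquitin-like modifier and Usp18 removes it. The 14 other antiviral effectors are Rsad2, Cmpk2, Mx1, Mx2, Oas1a, Oas2, Oas3, Oasl1, Oasl2, Parp14, Trim30a, Xaf1, Zbp1 and Ifi44. The 3 sensors of viral RNA are Ddx58 (RIG-I), Ifih1 (MDA5) and Dhx58 (LGP2), and the 3 transcription factors are Irf1, Irf7 and Irf9. The 5 guanylate-binding proteins (Gbp2, Gbp3, Gbp4, Gbp5, Gbp7) and the 5 immunity-related GTPases (Igtp, Irgm1, Iigp1, Ifi47, Tgtp1) attack the vacuoles of intracellular pathogens and are known targets of interferon gamma. Cxcl9 and Cxcl10 are chemokines that draw T and NK cells.

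Regulatory sequence just upstream of the start site is shown for 8 of the genes, because it holds the letters through which the set is known to be switched on. The sequences are RefSeq windows of mouse build GRCm38.p6 (mm10), 250 bases ending at the base before the annotated start and written 5′ to 3′ on the gene's strand. Capitals mark a match, on either strand, to the ISRE core, which is 2 copies of GAAA separated by any 2 bases, or to the GAS core TTCNNNGAA. The first 4 are from genes of the IFIT, ISG15 and antiviral roles, Gbp2 and Igtp from the GTPase roles, and Irf1 and Cxcl10 from the transcription factors and chemokines.
Ifit1, chr19:34640639-34640888 (+): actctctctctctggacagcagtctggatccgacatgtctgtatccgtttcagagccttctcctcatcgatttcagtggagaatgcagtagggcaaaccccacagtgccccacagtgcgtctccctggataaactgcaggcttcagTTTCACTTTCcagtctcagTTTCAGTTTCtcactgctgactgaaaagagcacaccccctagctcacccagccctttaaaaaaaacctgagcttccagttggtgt
Ifit3, chr19:34583279-34583528 (+): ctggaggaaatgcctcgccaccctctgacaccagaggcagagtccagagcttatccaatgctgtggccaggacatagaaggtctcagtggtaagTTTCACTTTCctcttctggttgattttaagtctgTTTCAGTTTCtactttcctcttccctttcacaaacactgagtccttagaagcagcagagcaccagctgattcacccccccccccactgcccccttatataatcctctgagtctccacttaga
Isg15, chr4:156200819-156201068 (-): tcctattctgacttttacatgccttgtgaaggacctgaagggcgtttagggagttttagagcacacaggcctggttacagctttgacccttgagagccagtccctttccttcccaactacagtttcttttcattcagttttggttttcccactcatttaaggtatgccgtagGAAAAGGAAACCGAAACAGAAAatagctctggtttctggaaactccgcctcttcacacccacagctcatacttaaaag
Rsad2, chr12:26456453-26456702 (-): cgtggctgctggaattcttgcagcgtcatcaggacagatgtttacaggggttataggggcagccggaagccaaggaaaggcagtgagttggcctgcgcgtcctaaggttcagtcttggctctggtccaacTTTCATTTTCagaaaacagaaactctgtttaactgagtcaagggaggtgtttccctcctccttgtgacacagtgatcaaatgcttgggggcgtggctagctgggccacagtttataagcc
Gbp2, chr3:142620413-142620662 (+): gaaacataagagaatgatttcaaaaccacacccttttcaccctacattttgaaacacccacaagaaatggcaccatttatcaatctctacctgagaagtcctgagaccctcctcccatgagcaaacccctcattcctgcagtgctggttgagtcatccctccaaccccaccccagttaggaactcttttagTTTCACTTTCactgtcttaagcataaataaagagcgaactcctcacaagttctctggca
Igtp, chr11:58199306-58199555 (+): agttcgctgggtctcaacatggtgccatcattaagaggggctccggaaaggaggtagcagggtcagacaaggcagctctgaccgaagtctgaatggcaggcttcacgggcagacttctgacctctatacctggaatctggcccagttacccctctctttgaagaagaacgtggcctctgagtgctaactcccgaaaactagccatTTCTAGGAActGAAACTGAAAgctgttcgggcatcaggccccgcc
Irf1, chr11:53769764-53770013 (+): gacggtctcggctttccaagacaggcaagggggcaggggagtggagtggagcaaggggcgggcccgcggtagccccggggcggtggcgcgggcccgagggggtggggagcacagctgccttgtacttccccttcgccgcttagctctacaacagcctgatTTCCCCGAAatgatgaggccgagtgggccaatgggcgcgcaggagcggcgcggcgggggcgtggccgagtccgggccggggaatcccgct
Cxcl10, chr5:92348890-92349139 (-): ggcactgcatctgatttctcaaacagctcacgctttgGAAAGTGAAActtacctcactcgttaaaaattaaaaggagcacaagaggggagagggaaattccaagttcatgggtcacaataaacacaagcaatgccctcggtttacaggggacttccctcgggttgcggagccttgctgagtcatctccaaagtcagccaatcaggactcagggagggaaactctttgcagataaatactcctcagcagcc

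Ifit1 and Ifit3 each held 2 ISRE cores, Isg15 held 3 in a row, each overlapping the next, and Rsad2, Gbp2 and Cxcl10 held 1. Igtp held a GAS core and an ISRE core side by side, and the Irf1 window shown held a GAS core without an ISRE core. Windows of 300 bases, from 250 before to 50 after the start, were found for 29 of the 38 genes. Of these 29 genes, 18 held an ISRE core, against 3.99% of 27025 mouse genes with such a window. A GAS core was found in 7 of the 29, against 9.55% of all genes. A match is a description of the letters and not a measured binding site, and a window without one says nothing about sequence outside it. The set is also clustered in the genome (Gencode M21, mm10): the 4 IFIT genes lie within chr19:34550694-34650009, Gbp2, Gbp3, Gbp5 and Gbp7 within chr3:142493978-142638008, and Cxcl9 and Cxcl10 within chr5:92321347-92348889. The values below are sums over the exons of each gene.

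The libraries held 22382535 to 38062873 counts, and the 8 lung identity markers were present in all 12, with Sftpc, the surfactant protein of type II pneumocytes, at 7628 to 11605 CPM. The Adm level ranged from 3.96 to 8.15 CPM in WT and from 2.87 to 6.28 CPM in Adm+/- lungs, with overlap between the genotypes after either treatment. WT PBS 5 and Adm+/- PBS 6 stood apart by a high summed level of lung fibroblast markers, 44673 and 29167 CPM. They also had the lowest share of counts in protein-coding genes, 77.8% and 80.1%, against 84.3% to 87.6% in the other libraries. Each was the highest library of its group for many tested genes, 44.6% and 43.1%. The cause of these differences was not tested. Genes were tested with edgeR's quasi-likelihood test over all 12 libraries with Benjamini-Hochberg adjustment over 15885 protein-coding genes, and a gene was called where the adjusted p was below 0.05 and the log2 fold change beyond 0.5 in either direction. Of the 38 genes, 37 passed the filter on low counts. Mx2 is not annotated as protein-coding, and its test values come from the same fit over 23051 genes of all types.

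In each group 1 lung held the highest value for most of the set. In Adm+/- PBS lungs, replicate 7 was the highest of the 3 for all 38 genes, and in Adm+/- LPS lungs replicate 2 was the highest for all 38. Replicate 4 was the highest WT PBS lung for 36 genes, and among WT LPS lungs replicate 10 was the highest for 33 and replicate 11 the lowest for 36. Over all tested genes, those 4 highest libraries held the top value for 26.9%, 36.7%, 23.3% and 33.4% of genes, in the same order. Outside WT LPS the lowest lung varied by gene: it was WT PBS 3 for 21 genes and WT PBS 5 for 17, Adm+/- PBS 8 for 23 and Adm+/- PBS 6 for 15, and Adm+/- LPS 1 for 26 and Adm+/- LPS 12 for 12. A second list of 57 tested interferon-stimulated genes outside the set was highest in the same libraries, for 52, 52, 43 and 36 of its genes.

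The mean log2 CPM of the 38 genes was 2.71, 3.76 and 2.83 in WT PBS lungs and 4.30, 4.76 and 3.42 in WT LPS lungs. In Adm+/- lungs it was 2.74, 4.43 and 2.62 after PBS and 4.67, 6.23 and 4.75 after LPS. Adm+/- PBS 7 therefore stood above WT LPS 9 and WT LPS 11 without any LPS, and WT LPS 11 stood below WT PBS 4. Gene by gene, Adm+/- PBS 7 exceeded WT LPS 11 for 33 of 38 genes and both Adm+/- LPS 1 and Adm+/- LPS 12 for 13. Adm+/- LPS 2 was the highest of the 12 libraries for all 38 genes.

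**Figure D1:**
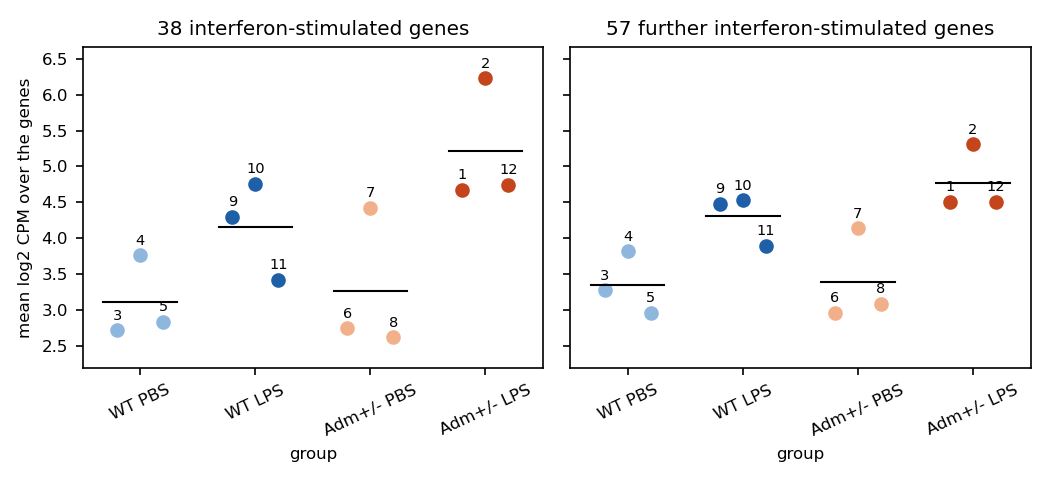
Mean log2 CPM over the 38 interferon-stimulated genes (left) and over 57 further interferon-stimulated genes (right) in each of the 12 lungs, one point per lung with its library number, by group; bars are group means. Within each group of the left panel 1 lung departs from the other 2, upward except in WT LPS, where replicate 11 is low at 3.42. The lungs run from 2.62 to 4.43 in Adm+/- PBS and from 4.67 to 6.23 in Adm+/- LPS. The right panel shows the same lungs apart in the same direction.

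The lungs of a group differed more in these genes than in most others. The median standard deviation (SD) of log2 CPM over the 3 lungs was 0.66 for the set against 0.29 for all tested genes in WT PBS, and 0.74 against 0.17 in WT LPS. In Adm+/- lungs it was 0.91 against 0.19 after PBS and 0.81 against 0.12 after LPS. The SD of a gene was above the 90th percentile of all tested genes for 18, 26, 33 and 36 of the 38 genes in WT PBS, WT LPS, Adm+/- PBS and Adm+/- LPS. The lung left out in each group below was picked from these same genes, as the one whose removal gave the smallest median SD. Without WT PBS 4 the median SD was 0.25 against 0.31 for all tested genes, without WT LPS 11 it was 0.29 against 0.14, without Adm+/- PBS 7 it was 0.16 against 0.19, and without Adm+/- LPS 2 it was 0.078 against 0.080. A fall for the set was therefore built into the choice, which was not made afresh for all tested genes. These values are descriptions with no test, and the SD of 2 lungs is itself imprecise.

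**Figure D2:**
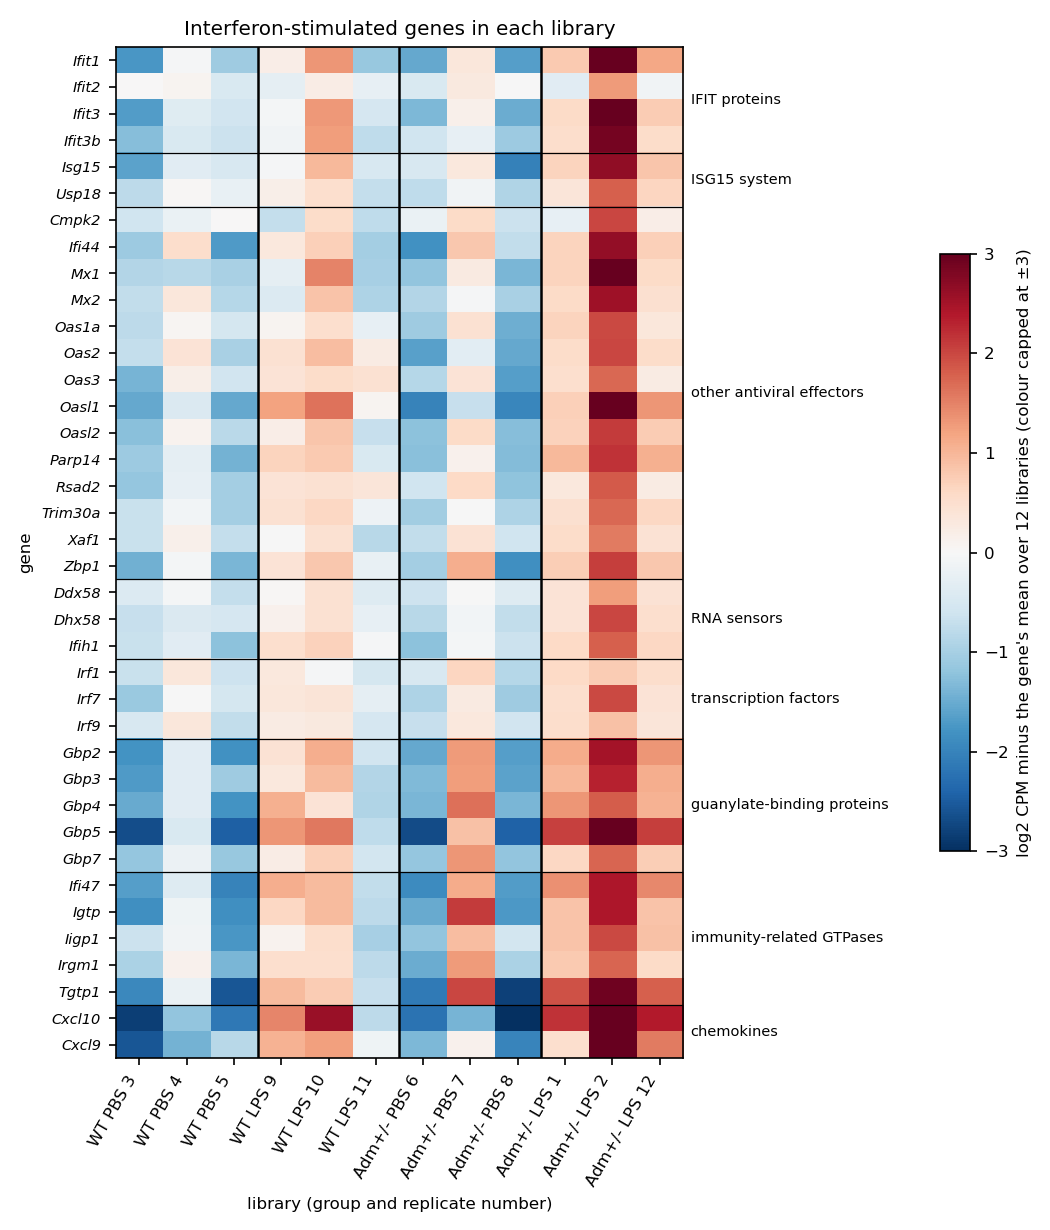
Level of each of the 38 genes (rows, grouped by role) in each of the 12 libraries (columns), as log2 CPM minus the mean of that gene over the 12 libraries, with colour capped at ±3. The columns Adm+/- PBS 7 and Adm+/- LPS 2 are higher than the other columns of their groups in all 38 rows, and the guanylate-binding and immunity-related GTPase rows of Adm+/- PBS 7 are 3.38 to 27.2 times the mean CPM of the other two Adm+/- PBS lungs.

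LPS raised 18 of the 37 tested genes in Adm+/- lungs and 2 in WT lungs, and lowered none in either genotype. Over all tested genes 12.8% were called higher and 12.2% lower in Adm+/- lungs, and 10.5% higher and 7.09% lower in WT lungs. All 37 fitted changes were above 0 in both genotypes, from 0.49 to 6.03 on the log2 scale in Adm+/- and from 0.0053 to 3.69 in WT lungs. The median log2 fold change of the set was 1.64 in Adm+/- and 1.02 in WT lungs, against -0.013 and 0.0091 for all tested genes. Single lungs moved both medians: the Adm+/- value was 0.98 without Adm+/- LPS 2 and 2.65 without Adm+/- PBS 7, and the WT value was 0.60 without WT LPS 10 and 1.41 without WT PBS 4. No gene was called lower by edgeR, DESeq2 or limma-voom. At an unadjusted p below 0.05 there were 27 genes in Adm+/- and 9 in WT lungs, against 41.8% and 36.7% of all tested genes. The LPS and PBS ranges did not overlap, with LPS higher, for 21 of 38 genes in Adm+/- lungs (26.6% of all tested genes) and for 7 in WT lungs (18.3%). In a whole lung, more cells that carry such a transcript and more transcript per cell cannot be told apart.

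**Figure D3:**
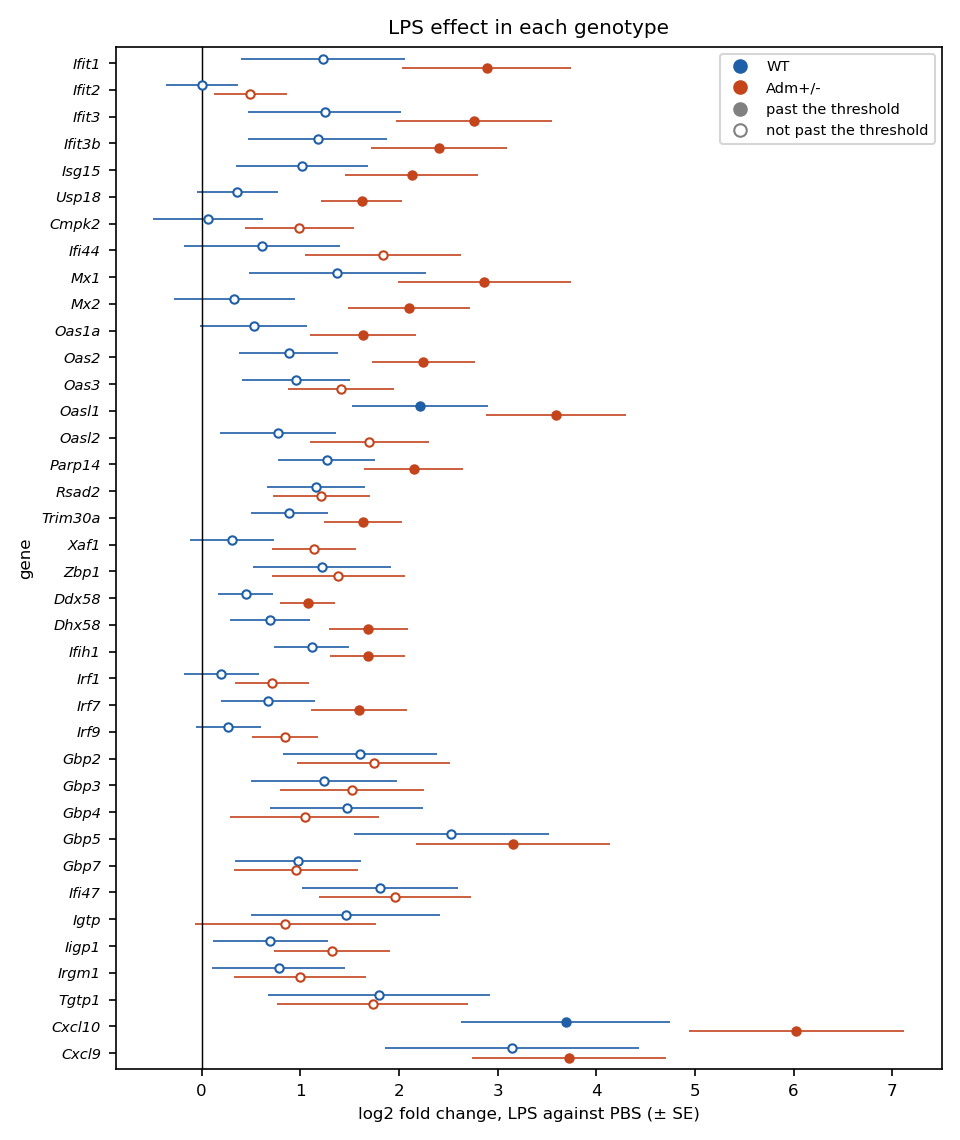
Log2 fold change of LPS against PBS (± SE) for the 38 genes, ordered by role, in WT (blue) and Adm+/- lungs (orange); filled points passed the threshold. Of 37 genes in the protein-coding fit 2 are filled for WT and 18 for Adm+/-, the points farthest to the right belong to Cxcl10, and Mx2 is drawn from the fit over all annotated genes.

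Cxcl10 had the largest fitted change in both genotypes. Cxcl9 came next, but most of its PBS lungs were at or under 3 counts. In Adm+/- lungs its lead over Oasl1 (3.59) was smaller than its SE. Cxcl10 was at 0.349, 1.26 and 0.618 CPM in WT PBS lungs, 8.38, 18.5 and 1.71 in WT LPS, 0.579, 1.08 and 0.278 in Adm+/- PBS and 13.7, 102 and 16 in Adm+/- LPS. Every LPS lung exceeded every PBS lung of its genotype, while WT LPS 11 lay close to WT PBS 4 and Adm+/- LPS 2 lay far above the rest. Cxcl10 rose by 6.03 ± 1.09 (adjusted p = 0.00185) in Adm+/- and by 3.69 ± 1.06 (adjusted p = 0.0297) in WT lungs on the log2 scale. Cxcl9 was scarce, with 0, 2 and 3 counts in WT PBS, 29, 25 and 9 in WT LPS, 2, 13 and 1 in Adm+/- PBS and 16, 159 and 37 in Adm+/- LPS. It rose in Adm+/- lungs by 3.73 ± 0.99 (adjusted p = 0.0146). In WT lungs it did not pass the test (adjusted p = 0.10), and its PBS lungs were at or under 3 counts. The summed counts, 63 after LPS and 5 after PBS, give a ratio of 9.66 with an exact 95% interval of 3.93 to 30.8, which covers counting error alone and not the spread between lungs. Cxcl10 shares 133 exon bases with Art3 on the opposite strand, so a share of its reads cannot be assigned without the strand setting of the counting.

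Of the 4 IFIT genes, 3 rose in Adm+/- lungs and none was called in WT lungs. Ifit1 was at 3.77, 12.5 and 5.99 CPM in WT PBS lungs, 14.7, 31.8 and 5.77 in WT LPS, 4.31, 16.1 and 3.98 in Adm+/- PBS and 22, 133 and 28.3 in Adm+/- LPS. For Ifit3 the levels were 3.03, 7.72 and 6.67 CPM in WT PBS and 9.46, 24.7 and 6.93 in WT LPS, and 3.84, 11 and 3.5 in Adm+/- PBS and 14.9, 94.4 and 16.8 in Adm+/- LPS lungs. The Adm+/- LPS lungs all stood above the Adm+/- PBS lungs, but replicate 2 carried several times the level of the other two, and WT LPS 11 lay within the WT PBS range. The change in Adm+/- lungs was 2.89 ± 0.86 (adjusted p = 0.025) for Ifit1, 2.76 ± 0.79 (adjusted p = 0.0212) for Ifit3 and 2.41 ± 0.69 (adjusted p = 0.0212) for Ifit3b. In WT lungs it was 1.23 ± 0.84 (adjusted p = 0.306) for Ifit1 and 1.25 ± 0.77 (adjusted p = 0.263) for Ifit3. Ifit2, the other gene of the cluster, had 0.49 ± 0.37 (adjusted p = 0.337) in Adm+/- and 0.0053 ± 0.37 (adjusted p = 0.993) in WT lungs. Ifit3 and Ifit3b share 51.2% and 45% of their 50-base windows with other genes, for the most part with each other, so their separate values are uncertain.

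Both genes of the ISG15 system rose in Adm+/- lungs. WT lungs held Isg15 at 3.65, 8.83 and 8.03 CPM after PBS and 11.1, 22.2 and 8.04 after LPS, and Adm+/- lungs at 8.0, 14.1 and 2.7 after PBS and 17.9, 71.1 and 20.1 after LPS. The Usp18 level was 11.6, 20.4 and 17 CPM in WT PBS, 22.7, 28.2 and 12 in WT LPS, 11.7, 18.5 and 10.7 in Adm+/- PBS and 25.8, 69.4 and 31 in Adm+/- LPS. For both genes the Adm+/- LPS lungs stood above the Adm+/- PBS lungs, while the WT groups overlapped. Isg15 rose by 2.13 ± 0.67 (adjusted p = 0.0321) and Usp18 by 1.62 ± 0.41 (adjusted p = 0.012) in Adm+/- lungs. The WT values were 1.02 ± 0.67 (adjusted p = 0.288) and 0.36 ± 0.41 (adjusted p = 0.541). Usp18 shares 124 exon bases with Gm44148 on the opposite strand.

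Among the other antiviral effectors, 6 of 13 genes rose in Adm+/- lungs in the protein-coding fit (Mx1, Oas1a, Oas2, Oasl1, Parp14 and Trim30a), and Oasl1 was the one called in WT lungs. Parp14 was at 54.2, 95.1 and 43.1 CPM in WT PBS lungs, 183, 199 and 82.8 in WT LPS, 48.2, 125 and 46.1 in Adm+/- PBS and 224, 514 and 239 in Adm+/- LPS. Parp14, an ADP-ribosyltransferase, was the most abundant of the role per exon length, and its Adm+/- LPS lungs all lay above every PBS lung. For Oasl1 the levels were 1.4, 3.11 and 1.42 CPM in WT PBS and 9.86, 13.2 and 4.5 in WT LPS, and 1.0, 2.6 and 1.03 in Adm+/- PBS and 6.96, 39.7 and 10.8 in Adm+/- LPS lungs. The Oas2 level was 3.03, 6.65 and 2.53 CPM in WT PBS, 6.93, 9.69 and 6.01 in WT LPS, 1.58, 4.02 and 1.67 in Adm+/- PBS and 7.37, 20.4 and 7.45 in Adm+/- LPS. Oas2 makes the oligoadenylates that activate RNase L, whereas Oasl1 belongs to the same family and restrains translation of Irf7. Oasl1 rose by 3.59 ± 0.71 (adjusted p = 0.00299) in Adm+/- and by 2.21 ± 0.69 (adjusted p = 0.0406) in WT lungs. In Adm+/- lungs Oas2 rose by 2.25 ± 0.52 (adjusted p = 0.0073), Parp14 by 2.15 ± 0.50 (adjusted p = 0.00766) and Trim30a by 1.64 ± 0.39 (adjusted p = 0.0090).

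Oasl2 lay on the threshold. WT lungs held Oasl2 at 19.2, 49.8 and 26.4 CPM after PBS and 52.5, 82.4 and 28.4 after LPS, and Adm+/- lungs at 19.7, 68.5 and 19 after PBS and 74.9, 198 and 77.7 after LPS. Its change in Adm+/- lungs was 1.7 ± 0.60, with no overlap between LPS and PBS lungs, and its adjusted p was at the threshold without passing it. Mx1, whose product acts in the nucleus against influenza virus, and Mx2, a cytoplasmic relative that acts against other viruses, are both known to be defective in most laboratory strains, and Mx2 is annotated as a polymorphic pseudogene. They had 2.87 ± 0.88 (adjusted p = 0.0287) and 2.1 ± 0.62 (adjusted p = 0.0272) in Adm+/- lungs. Oas1a rose by 1.63 ± 0.54 (adjusted p = 0.0382), although its Adm+/- LPS and PBS ranges overlapped and 57.6% of its 50-base windows also occur in Oas1g. Rsad2 (viperin, which makes an antiviral nucleotide), its neighbour Cmpk2, Oas3, Xaf1, Zbp1 and Ifi44 had values from 0.99 to 1.84 in Adm+/- lungs and did not pass the test.

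All 3 RNA sensors rose in Adm+/- lungs and none was called in WT lungs. The Ddx58 level was 56.9, 72.8 and 46.2 CPM in WT PBS, 77.5, 105 and 58.1 in WT LPS, 49, 74.6 and 58.3 in Adm+/- PBS and 101, 181 and 102 in Adm+/- LPS. Ifih1 was at 25.4, 32.3 and 17.3 CPM in WT PBS lungs, 57.9, 65.4 and 39.7 in WT LPS, 17.4, 39.1 and 26.1 in Adm+/- PBS and 61.6, 142 and 62.6 in Adm+/- LPS. For Dhx58 the levels were 4.27, 5.19 and 4.88 CPM in WT PBS and 7.61, 9.69 and 5.89 in WT LPS, and 3.89, 6.59 and 4.17 in Adm+/- PBS and 9.39, 28.4 and 9.94 in Adm+/- LPS lungs. In each genotype Ifih1 and Dhx58 were higher in every LPS lung than in every PBS lung, and Adm+/- LPS 2 was again the highest. Ddx58 rose by 1.08 ± 0.28 (adjusted p = 0.0138), Ifih1 by 1.68 ± 0.38 (adjusted p = 0.00677) and Dhx58 by 1.69 ± 0.40 (adjusted p = 0.0083) in Adm+/- lungs. The WT change of Ifih1 was 1.12 ± 0.38 (adjusted p = 0.0563) and that of Dhx58 0.69 ± 0.40 (adjusted p = 0.231). Dhx58 shares 141 exon bases with Dhx58os on the opposite strand.

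Of the 3 transcription factors, Irf7 alone rose in Adm+/- lungs, and none was called in WT lungs. WT lungs held Irf7 at 8.7, 18.8 and 13 CPM after PBS and 23.9, 24.8 and 15.7 after LPS, and Adm+/- lungs at 9.78, 22.8 and 8.95 after PBS and 26.6, 74.9 and 24.8 after LPS. The Irf9 level was 35.4, 61.9 and 29.2 CPM in WT PBS, 57.9, 59.8 and 34.8 in WT LPS, 30.6, 61.1 and 33 in Adm+/- PBS and 71, 90.5 and 63.1 in Adm+/- LPS. Irf1 was at 49.4, 98.5 and 50.8 CPM in WT PBS lungs, 97.9, 76.4 and 54.1 in WT LPS, 56.1, 123 and 42.9 in Adm+/- PBS and 119, 132 and 113 in Adm+/- LPS. Irf1, an early target of interferon gamma, stood in Adm+/- PBS 7 within the range of the Adm+/- LPS lungs, so the groups overlapped. Irf7, which amplifies type I interferon production, rose by 1.6 ± 0.48 (adjusted p = 0.0274). Irf9 had 0.85 ± 0.33 (adjusted p = 0.0726) and Irf1 0.72 ± 0.38 (adjusted p = 0.172) in Adm+/- lungs. Its SD of log2 CPM over the Adm+/- LPS lungs, 0.11, was the lowest of the 38 genes. Irf1 shares 135 exon bases with Gm17334 on the opposite strand.

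The 10 GTPase genes had large fitted changes but mostly no call, and their Adm+/- PBS lungs spread widely. Gbp5 was the one called, in Adm+/- lungs, and none of the 10 was called in WT lungs. For Gbp5 the levels were 2.6, 12.2 and 3.03 CPM in WT PBS and 42.3, 50.9 and 9.996 in WT LPS, and 2.58, 31.1 and 3.06 in Adm+/- PBS and 70.7, 191 and 71.8 in Adm+/- LPS lungs. The Gbp2 level was 12.7, 34.9 and 12.4 CPM in WT PBS, 59.1, 94.1 and 29.6 in WT LPS, 15.1, 106 and 14 in Adm+/- PBS and 95.4, 249 and 110.4 in Adm+/- LPS. Gbp7 was at 28, 55.7 and 28.7 CPM in WT PBS lungs, 74.2, 104 and 43 in WT LPS, 28.4, 158 and 27.8 in Adm+/- PBS and 97.4, 214 and 106 in Adm+/- LPS. In all 3 genes Adm+/- PBS 7 stood far above the other PBS lungs of its genotype, and for Gbp2 and Gbp7 it reached the range of the LPS lungs. Gbp5 rose by 3.16 ± 0.98 (adjusted p = 0.0302) in Adm+/- lungs, whereas Gbp2 had 1.74 ± 0.77 (adjusted p = 0.109) and Gbp7 0.96 ± 0.63 (adjusted p = 0.275). Gbp7 shares 12.7% of its 50-base windows with other genes, for the most part with Gm43802, which overlaps 637 of its exon bases on the same strand, so a share of its reads cannot be assigned.

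Adm+/- PBS 7 also stood out for Gbp4 and the immunity-related GTPases. WT lungs held Gbp4 at 23.1, 52.3 and 19.2 CPM after PBS and 139, 87.8 and 35.3 after LPS, and Adm+/- lungs at 25.5, 207 and 25.6 after PBS and 165, 234 and 136 after LPS. For Iigp1 the levels were 56, 80.9 and 25.9 CPM in WT PBS and 93.7, 127 and 43.8 in WT LPS, and 38.3, 166 and 60.04 in Adm+/- PBS and 159, 344 and 161 in Adm+/- LPS lungs. The Igtp level was 4.89, 16.3 and 4.94 CPM in WT PBS, 27.4, 34.2 and 10.3 in WT LPS, 6.21, 76.7 and 5.33 in Adm+/- PBS and 32, 95.5 and 32.4 in Adm+/- LPS. Adm+/- PBS 7 was above Adm+/- LPS 1 and Adm+/- LPS 12 for all 3 of these genes, although the mouse had received PBS. Ifi47 was at 6.83, 16.6 and 5.31 CPM in WT PBS lungs, 46, 41.9 and 12.9 in WT LPS, 5.79, 46.8 and 6.72 in Adm+/- PBS and 56.3, 117 and 59.3 in Adm+/- LPS. WT lungs held Tgtp1 at 0.427, 1.6 and 0.247 CPM after PBS and 3.7, 3.2 and 1.12 after LPS, and Adm+/- lungs at 0.368, 7.7 and 0.199 after PBS and 7.22, 14.7 and 6.63 after LPS. For Ifi47 every Adm+/- LPS lung exceeded every Adm+/- PBS lung, and its change of 1.96 ± 0.77 (adjusted p = 0.0747) did not pass the test. The values were 0.85 ± 0.92 (adjusted p = 0.52) for Igtp, 1.32 ± 0.58 (adjusted p = 0.108) for Iigp1 and 1.74 ± 0.97 (adjusted p = 0.198) for Tgtp1 in Adm+/- lungs. Tgtp1 shares 81.2% of its 50-base windows with other genes, nearly all with Tgtp2, so its level is uncertain, and Igtp shares 11.8%.

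How many genes were called in Adm+/- lungs depended on which lung was left out. Without Adm+/- PBS 7, 35 of 37 genes were called higher, all but Ifit2 and Cmpk2, while the share over all tested genes went from 12.8% to 11.4%. Without Adm+/- LPS 2, 7 genes were called, and without Adm+/- PBS 6 or Adm+/- PBS 8, 8 in each case (all tested genes 11.1%, 10.8% and 10.6%). Leaving out any 1 of the other 8 libraries gave 18 to 20 calls (10.6% to 14.2% of all tested genes). Without both Adm+/- PBS 7 and Adm+/- LPS 2, an alternative chosen after seeing the data, 28 were called (9.41% of all tested genes). Oas2, Oasl1, Parp14, Trim30a, Ifih1, Dhx58 and Cxcl10 were called in all 13 of these fits, the full one and those without 1 library.

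Without Adm+/- LPS 2 the change in Adm+/- lungs was 4.48 (adjusted p = 0.00416) for Cxcl10, 1.62 (adjusted p = 0.143) for Ifit1 and 1.19 (adjusted p = 0.178) for Isg15. Ifit1 and Isg15 kept a positive change and lost the call, and Cxcl10 kept both. Without Adm+/- PBS 7 the values were 3.88 (adjusted p = 0.0176) for Ifit1 and 2.78 (adjusted p = 0.0246) for Isg15.

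In WT lungs the 2 calls were lost, leaving 0 by edgeR, without WT PBS 3, WT PBS 5, WT LPS 9 or WT LPS 10 (6.32% to 10.1% of all tested genes were called higher in these fits). There were 4 without Adm+/- PBS 7 or Adm+/- LPS 2, 3 without Adm+/- PBS 6 and 1 without Adm+/- PBS 8, libraries that enter the WT test through the shared estimate of the spread, and 11 without both Adm+/- PBS 7 and Adm+/- LPS 2. Over all tested genes the shares called higher in these fits were 9.64% without Adm+/- PBS 7, 9.47% without Adm+/- LPS 2, 10.4% without Adm+/- PBS 6, 9.54% without Adm+/- PBS 8 and 8.56% without both. The ranges of LPS and PBS lungs did not overlap for 28 of 38 genes without WT PBS 4 (22.0% of all tested genes) and for 31 without WT LPS 11 (24.5%), compared with 7 in the full data. The number stayed at 7 without WT PBS 3, WT PBS 5, WT LPS 9 or WT LPS 10 (20.2% to 24.5%), with 1 gene lower without WT LPS 10. In Adm+/- lungs the number of genes with no overlap was 36 without Adm+/- PBS 7 (30.2%). It was 21 to 24 without any other Adm+/- lung (28.9% to 31.8%). Leaving out a lung can only add such genes. The high numbers came from leaving out the highest PBS or lowest LPS lung of the set.

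**Figure D4:**
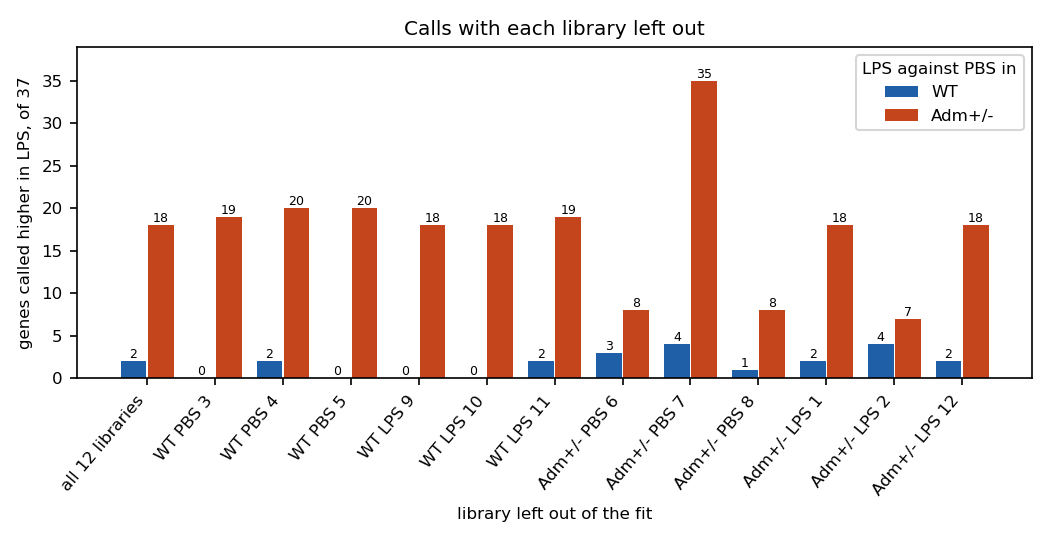
Number of the 37 tested genes called higher in LPS lungs, in WT (blue bars) and Adm+/- (orange bars), with all 12 libraries and with each library in turn left out of the fit. The Adm+/- bar is 18 with all libraries, 35 without Adm+/- PBS 7 and 7 without Adm+/- LPS 2, and the WT bar stays between 0 and 4.

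The excess of the highest lungs was not the same for every role. Relative to the mean of the other two lungs of its group, Adm+/- PBS 7 held the set at a median of 2.89-fold, up to 27.2-fold for Tgtp1. The 10 GTPase genes had a median of 7.39-fold in that lung, from 3.38 to 27.2, and the other 28 genes a median of 2.5-fold, from 1.39 to 6.06. In Adm+/- LPS 2 the median over the set was 2.64-fold, up to 7.64-fold for Mx1. There the GTPase genes stood at 2.14-fold, from 1.56 to 2.96, and the other 28 at 2.87-fold, from 1.13 to 7.64, with medians of 5.20-fold for the IFIT genes and 6.90-fold for the chemokines. WT PBS 4 held the GTPase genes at 2.60-fold and the others at 1.76-fold, and WT LPS 10 held them at 1.80-fold and 1.62-fold. WT LPS 11, the low lung of its group, held the set at 0.427 of the mean of the other two. These ratios are descriptions, and pooling the 2 GTPase roles was decided after their values had been seen.

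**Figure D5:**
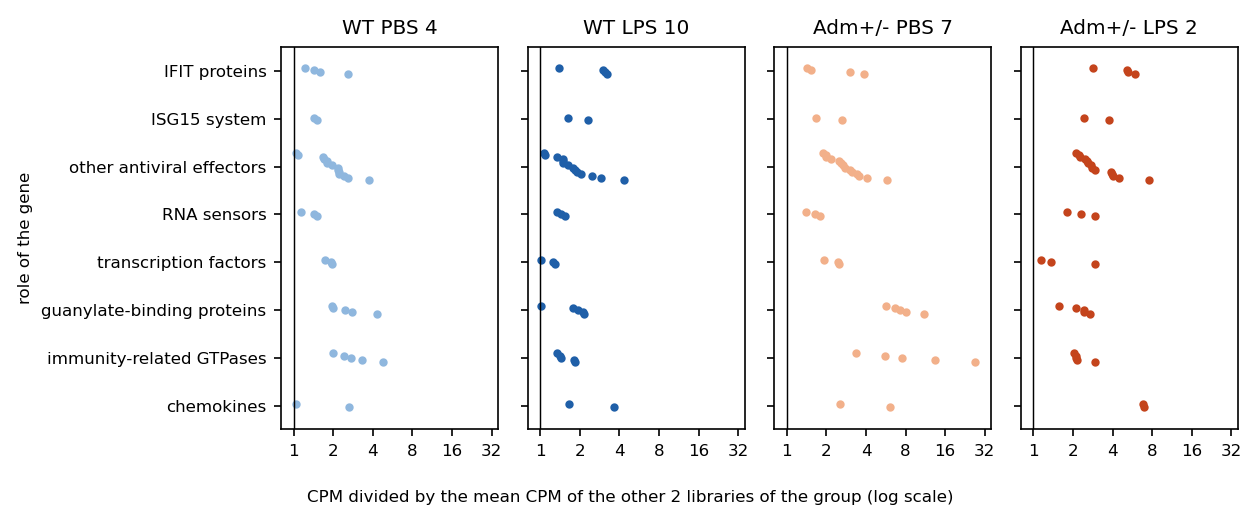
CPM in the highest lung of each group divided by the mean CPM of the other two lungs of that group (log axis), one point per gene, by role. In Adm+/- PBS 7 the guanylate-binding proteins and immunity-related GTPases lie at 3.38 to 27.2, wholly to the right of the ISG15 system, sensors and transcription factors and overlapping the other roles, and in Adm+/- LPS 2 they lie at 1.56 to 2.96 and overlap the lower IFIT and antiviral genes, with both chemokines to their right.

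Leaving out Adm+/- PBS 7 raised the fitted changes of both parts of the set. The median log2 fold change of the GTPase genes in Adm+/- lungs was 1.43 with 1 of 10 called, and 3.14 with 10 of 10 called without that lung. For the other 27 genes it was 1.68 with 17 called, and 2.51 with 25 called. These values follow from the same lung as the ratios above and are not separate evidence. Igtp went from 0.85 ± 0.92 (adjusted p = 0.52) to 3.21 (adjusted p = 0.0123), and Gbp2 from 1.74 ± 0.77 (adjusted p = 0.109) to 3.38 (adjusted p = 0.00543).

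In LPS lungs the fitted level was higher in Adm+/- than in WT mice for all 37 genes, by 0.50 to 2.20 on the log2 scale with a median of 1.05, but none was called. Over all tested genes 2.05% were called, 0.327% higher and 1.72% lower. DESeq2 and limma-voom also called none of the set, and 10 of 37 were under an unadjusted p of 0.05, against 14.3% of all tested genes. The smallest p belonged to Dhx58, at 1.04 ± 0.39 (adjusted p = 0.228), followed by Cxcl10 at 2.2 ± 0.86 (adjusted p = 0.25) and Usp18 at 1.0 ± 0.40 (adjusted p = 0.27). The 2 groups did not overlap for 11 of 38 genes, with Adm+/- higher in each, against 12.2% of all tested genes. Of those 11, 7 were GTPase genes, 3 were the transcription factors and 1 was Parp14. Without WT LPS 10, the highest WT LPS lung for most of the set, the number was 32 (19.2%). It was 11 to 17 without any other LPS lung (14.1% to 21.3%), and 1 gene was lower without Adm+/- LPS 2. Without Adm+/- LPS 2 the median difference over the 27 genes that are not GTPases was 0.32, with 22 above 0, and over the 10 GTPase genes it was 0.77.

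No difference between the genotypes in the response to LPS passed the test. No gene of the set was called by edgeR, DESeq2 or limma-voom, 0 of 37 had an unadjusted p below 0.05 (7.85% of all tested genes had one), and 0.145% of all tested genes were called. The median difference of the log2 fold changes, Adm+/- minus WT, was 0.63 for the set. The smallest p was that of Usp18, at 1.26 ± 0.57 (adjusted p = 0.636), then Oas2 at 1.36 ± 0.71 (adjusted p = 0.72) and Dhx58 at 1.0 ± 0.56 (adjusted p = 0.752). For the GTPase genes the median difference was 0.15 and 6 of 10 were above 0, and for the other genes it was 0.93 with all 27 above 0. Single lungs decided these values. Without Adm+/- PBS 7 the medians were 1.76 for the GTPase genes and 1.52 for the others, and without Adm+/- LPS 2 they were -0.34 with 1 of 10 above 0 and 0.26 with 19 of 27 above 0. The GTPase median was also below 0 without WT PBS 4 (-0.48), WT LPS 11 (-0.21), Adm+/- PBS 6 (-0.26) or Adm+/- PBS 8 (-0.27). With 1 library left out, the median over the set ranged from 0.12 to 1.55. The calls in Adm+/- lungs that were missing in WT lungs are therefore not shown to be a difference between the genotypes.

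In PBS lungs no difference between the genotypes passed the test. None of the set and 0% of all tested genes were called, DESeq2 and limma-voom called none of the set, and 0 of 37 genes against 2.17% of all tested genes were under an unadjusted p of 0.05. The ranges of the genotypes overlapped for all 38 genes, while 2.47% of all tested genes were higher and 2.51% lower without overlap. The fitted difference was above 0 for 30 of 37 genes, with a median of 0.17. The smallest p values belonged to Gbp4, at 1.45 ± 0.77 (adjusted p = 0.999), Igtp, at 1.76 ± 0.96, and Tgtp1, at 1.89 ± 1.12. These rested on 1 lung. Without Adm+/- PBS 7 the values were -0.30, -0.60 and -1.46, the median over the GTPase genes went from 1.06 to -0.56, and 0 of 37 were above 0.

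The interferon transcripts themselves were at or near the detection limit. Of 21 interferon genes in the table, 9 had no count in any library, Ifnb1 among them, which allows up to 3 counts or 0.0925 to 0.185 CPM per library. Another 9 reached at most 3 counts in a library. Ifng, the type II interferon, had 16 counts over the 12 libraries, from 0 to 5 in each. The highest count, 5, was in Adm+/- PBS 7 (0.169 CPM), beside 2 in WT PBS 5 (0.124 CPM) and 1 in Adm+/- LPS 2 (0.0419 CPM). Such counts are too few to compare lungs. Ifnk, a keratinocyte interferon, was the one interferon gene above the filter on low counts, with 10 to 64 counts, and it was called in neither genotype. For the other interferon genes a change was not detectable at this depth, and interferon protein was not measured.

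Some receptor genes rose with LPS in each genotype. Of 6 receptor genes, 5 were called higher in Adm+/- and 3 in WT lungs (12.8% and 10.5% of all tested genes). The interferon gamma receptor genes Ifngr1 and Ifngr2 rose by 1.02 ± 0.13 (adjusted p = 0.00026) and 1.13 ± 0.14 (adjusted p = 0.000237) in Adm+/- lungs and by 0.84 ± 0.13 (adjusted p = 0.00157) and 0.71 ± 0.14 (adjusted p = 0.00615) in WT lungs. Il10rb, the shared subunit of the interferon lambda receptor, rose by 0.99 ± 0.15 (adjusted p = 0.000778) and 0.56 ± 0.15 (adjusted p = 0.0256). The library that was highest for the set in Adm+/- lungs was not the highest for most receptors: Adm+/- PBS 7 was the highest lung of its group for 2 of 6 and Adm+/- LPS 2 for 1 of 6, although WT PBS 4 was the highest for 6 of 6. Ifnar2 and Ifnlr1 rose in Adm+/- lungs, by 0.91 ± 0.14 (adjusted p = 0.000695) and 0.59 ± 0.13 (adjusted p = 0.00587). In WT lungs Ifnar2 had 0.31 ± 0.14 (adjusted p = 0.127) and Ifnlr1 0.46 ± 0.13 (adjusted p = 0.0296), the latter under the limit on size. Ifnar1, the other chain of the type I receptor, had 0.48 ± 0.10 (adjusted p = 0.00406) in Adm+/- lungs, just under that limit.

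Of 12 genes that carry or restrain the receptor signal, 7 were called higher in Adm+/- lungs (12.8% of all tested genes). In WT lungs 5 were called higher and 1 lower (10.5% and 7.09%). Jak2, a receptor kinase, rose by 1.21 ± 0.14 (adjusted p = 0.000171) in Adm+/- and 0.68 ± 0.14 (adjusted p = 0.00758) in WT lungs, and the phosphatase gene Ptpn6 by 1.37 ± 0.18 (adjusted p = 0.000285) and 1.43 ± 0.18 (adjusted p = 0.000529). Socs3, a feedback inhibitor of cytokine receptors, rose by 3.71 ± 0.50 (adjusted p = 0.000322) and 1.6 ± 0.46 (adjusted p = 0.0305). Socs1, the main brake on interferon gamma signalling, fell in WT lungs, with -0.97 ± 0.23 (adjusted p = 0.0125), and had -0.45 ± 0.22 (adjusted p = 0.147) in Adm+/- lungs. Of 15 genes upstream of interferon production, 6 were called higher in Adm+/- and 5 in WT lungs (12.8% and 10.5% of all tested genes). They included the kinase gene Ikbke, at 2.53 ± 0.22 (adjusted p = 5.91e-05) and 2.1 ± 0.22 (adjusted p = 0.000169), and the Toll-like receptor adaptor Myd88, at 1.7 ± 0.20 (adjusted p = 0.000143) and 0.91 ± 0.19 (adjusted p = 0.00793). Tmem173 (STING) rose in Adm+/- lungs by 1.68 ± 0.23 (adjusted p = 0.000394) and had 0.60 ± 0.23 (adjusted p = 0.0849) in WT lungs, whereas Irf5 rose by 0.59 ± 0.18 (adjusted p = 0.0308) and 0.96 ± 0.18 (adjusted p = 0.00458). None of these genes named here was called for a difference of response between the genotypes. Unlike for the receptors, Adm+/- PBS 7 was the highest lung of its group for 7 of the 12 and 8 of the 15 genes. Adm+/- LPS 2 was the highest for 7 of the 12 and 9 of the 15.

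The 57 further interferon-stimulated genes included strong responders and varied less between lungs, by the median SD, than the set. LPS raised 29 of them and lowered 1 in Adm+/- lungs (12.8% and 12.2% of all tested genes). It raised 13 and lowered 1 in WT lungs (10.5% and 7.09%). The median log2 fold changes were 0.95 in Adm+/- and 0.55 in WT lungs. Slfn4 rose by 5.9 ± 0.55 (adjusted p = 6.62e-05) and 4.46 ± 0.50 (adjusted p = 0.000265) in Adm+/- and WT lungs, and Ifitm6 by 4.51 ± 0.43 (adjusted p = 7.07e-05) and 4.12 ± 0.41 (adjusted p = 0.000139). Ifitm1, a membrane protein that blocks viral entry, rose by 3.83 ± 0.41 (adjusted p = 9.85e-05) and 3.31 ± 0.40 (adjusted p = 0.000432). Ifi27 was the gene that fell in both, with -0.76 ± 0.15 (adjusted p = 0.00324) and -0.79 ± 0.15 (adjusted p = 0.00501). The median SD of log2 CPM of this list was 0.44, 0.36, 0.47 and 0.46 in WT PBS, WT LPS, Adm+/- PBS and Adm+/- LPS, between that of the set and that of all tested genes.

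Markers of several leukocyte types, though not of B cells, also moved with LPS. The summed level of 12 neutrophil markers was 40.8 to 186 CPM in PBS and 1607 to 2966 CPM in LPS lungs, and that of 12 monocyte and macrophage markers 224 to 296 and 593 to 951 CPM. The 10 NK cell markers, among which at most 3 were at 0 in a library, summed to 3.61 to 4.66 CPM in PBS and 5.87 to 12.4 CPM in LPS lungs. Set beside the 4 highest lungs, these lists gave a mixed account. Adm+/- PBS 7 held neutrophil markers at 51.3 CPM, monocyte and macrophage markers at 258 and NK markers at 3.75 CPM, which were 0.939, 1.09 and 0.956 of the mean of the other two lungs. Adm+/- LPS 2 held them at 1700.0, 750.4 and 12.4 CPM, or 0.963, 0.953 and 1.76 of that mean. WT PBS 4 held neutrophil markers at 186 CPM, 3.07-fold the other two lungs, and WT LPS 10 was the lowest of its group for both myeloid lists, at 1701 and 593 CPM. T cell markers, 10 in all with none at 0, summed to 19.2 to 25 CPM in PBS and 13.4 to 17.8 CPM in LPS lungs, and of the 9 tested 3 were called lower in Adm+/- and 1 in WT lungs (12.2% and 7.09% of all tested genes) and none higher. They were 0.961 of the other two lungs in Adm+/- PBS 7 and 1.08 in Adm+/- LPS 2. B cell markers, 8 in all, summed to 38.5 to 66.0 CPM in PBS and 40.2 to 66.4 CPM in LPS lungs. None of the 8 was called in Adm+/- or WT lungs (25% and 17.6% of all tested genes, either direction). Markers of plasmacytoid dendritic cells, known producers of type I interferon, summed to 460 to 511 CPM in Adm+/- LPS lungs, highest in Adm+/- LPS 2, and to 250.2 to 414 CPM in the other groups, with at most 2 of 8 at 0 in a library. Most of that sum was Tcf4, which other cell types also express, with up to 12457 counts in a library, while Siglech, a defining marker of these cells, had at most 11. Of the 5 tested, none was called in Adm+/- lungs (median log2 fold change 0.095), and Runx2 was called higher in WT lungs. The part of these markers and of the NK markers in the level of Adm+/- LPS 2, and of the neutrophil markers in that of WT PBS 4, was not tested. Skeletal muscle markers summed to 415 to 1294 CPM in WT LPS lungs and to 6.58 to 29.7 CPM elsewhere, and squamous epithelium markers to 28.9 to 2952 CPM in WT LPS lungs and 4.41 to 43.5 CPM elsewhere, and the part of these markers in the WT values was not tested either.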

How the data were processed

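Counts per gene in 12 mouse lung libraries, 1 per mouse, were analysed. The authors made the libraries with rRNA depletion and a directional kit, trimmed the reads with Trim Galore, aligned to mm10 with HISAT2 and assigned reads to Gencode genes with featureCounts. The table they deposited holds raw whole-number counts, without normalization, for 52550 genes. The Gencode release and the strand setting of the counting are not given in the sources used here, so reads of overlapping genes cannot be divided. Without molecular identifiers, floors and intervals cover counting error only, and a floor of 3 counts per library was used.

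The members and gene lists were chosen with earlier results of these data known. In R 4.3.3, the 15885 of 21950 protein-coding genes (72.4%) that passed filterByExpr were normalized by TMM and tested with the quasi-likelihood test of edgeR 4.0.16, with 1 coefficient per group, no covariate and 8 residual degrees of freedom. The threshold for a call was an adjusted p of 0.05 together with a log2 fold change beyond 0.5 in either direction. SE is the log2 fold change divided by the root of F. Log2 CPM used a prior count of 2. The methods of the study use limma, and limma-voom (limma 3.58.1) and DESeq2 1.42.0 were alternatives, beside other filters, normalizations and left-out libraries. Scripts were tested on simulated data. Same-group libraries were compared in 12 pairs, and none held identical counts.

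CPM in every library is given for the 2 genes of each role with the highest RPKM (reads scaled to exon length and library size), the 1 with the largest LPS change, the 3 with the smallest p in each other comparison and the 3 with the largest SD. Named pathway genes are the receptors, Ifnb1, Ifng and the 3 of each list with the smallest p in each LPS comparison. Ifnk and Ifi27 were named after their values had been seen. Of 63 further interferon-stimulated genes listed, 62 were matched in the table and 57 passed the filter. Gene positions and overlaps were taken from Gencode M21, and promoter windows from RefSeq.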

Additional observations from a re-analysis of the deposited data

How the results depend on the processing

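No paired analysis was possible because the groups share no replicate number: each number is the number of 1 library. The number of genes called higher by LPS, 2 in WT lungs, was 5 by DESeq2 and 0 by limma-voom (12.1% and 10.1% of all tested genes). It was 0 by glmTreat against a log2 fold change of 0.5 and 0 without WT PBS 5 and Adm+/- PBS 6 (5.07% and 9.83%). It ranged from 0 to 4 when 1 library was left out (6.32% to 10.4%). In Adm+/- lungs it was 18, against 23 by DESeq2 and 21 by limma-voom (14% and 13% of all tested genes). It was 9 by glmTreat and 10 without WT PBS 5 and Adm+/- PBS 6 (6.9% and 12.9%), and ranged from 7 to 35 with 1 library left out (10.6% to 14.2%). Without both Adm+/- PBS 7 and Adm+/- LPS 2 the numbers were 11 in WT and 28 in Adm+/- lungs (8.56% and 9.41%). RLE size factors, no filter, a filter at 1 CPM in 3 libraries, all annotated genes and the 6 libraries of a comparison gave 2 or 3 and 18 to 21. The shares over all tested genes in these fits were 5.02% to 10.6% in WT and 10.5% to 14.5% in Adm+/- lungs. The difference of the responses and both genotype comparisons gave 0 under every alternative run. The median SD of the set, with 1 library left out, ranged from 0.25 to 0.77 in WT PBS, 0.29 to 0.93 in WT LPS, 0.16 to 1.16 in Adm+/- PBS and 0.078 to 0.999 in Adm+/- LPS.

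Some values that had not passed the test changed sign under at least 1 alternative: those of 4 of 37 genes for LPS in WT lungs, 2 for LPS in Adm+/- lungs, 17 for the difference of the responses, 5 for the genotypes in LPS lungs and 35 for the genotypes in PBS lungs. The values for the genes named in those comparisons follow. The LPS change in WT lungs was -0.011 for Ifit2 and -0.051 for Cmpk2 by limma-voom, -0.016 for Ifit2 with all annotated genes, -0.14 for Ifit2 without WT PBS 5 and -0.14 without WT PBS 5 and Adm+/- PBS 6, and -0.087 for Cmpk2 without WT PBS 3. Without WT LPS 10 it was -0.17 for Ifit2, -0.50 for Cmpk2 and -0.015 for Xaf1, and without WT LPS 9 -0.021 for Irf1. In Adm+/- lungs it was -0.19 for Ifit2 and -0.0025 for Cmpk2 without Adm+/- LPS 2, and -0.0021 for Ifit2 without both high libraries. The genotype difference in PBS lungs was -0.30 for Gbp4, -0.60 for Igtp and -1.46 for Tgtp1 without Adm+/- PBS 7, and -0.30, -0.60 and -1.46 without both high libraries. The causes were not tested. The highest values with 1 library left out were, for the WT change, 0.11 for Ifit2, 0.65 for Xaf1 and 0.61 for Irf1 without WT PBS 4, for the Adm+/- change 1.4 for Cmpk2 without Adm+/- PBS 7, and for the difference in PBS lungs 2.03 for Gbp4, 2.59 for Igtp and 3.0 for Tgtp1 without WT PBS 4. With 3 lungs in a group and 1 of them far from the others, a missing call says little about the size of a change, and scarce transcripts such as Cxcl9 and the interferons are limited by depth.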
